A study of Homo sapiens with 21 samples.

Results

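YAPKO1 is a line of NLF cells in which YAP1 was targeted with CRISPR-Cas9, and it is set here against the parental NLF cells it derives from. NLF is an established human neuroblastoma cell line, known to carry an amplified MYCN gene. The comparison rests on 6 of the 21 RNA sequencing libraries of the series, 3 from YAPKO1 cells in 0.01% DMSO and 3 from parental cells whose labels give the same solvent. They were chosen by line and treatment, without use of any measured value. The lines used for orientation are YAPKO2, a second YAP1 knockout made with another guide, and sgCON, which received Cas9 and a scrambled guide, both in DMSO with 3 libraries each. Parental cells carry neither Cas9 nor a guide, so that guide, virus, selection and passage all differ between YAPKO1 and parental cells and cannot be told apart with these 6 libraries. The labels do not say whether each line is a single clone, nor that the 3 libraries of a line are separate cultures. The p-values rest on the spread between libraries of a group, estimated over all 21 libraries of the series, drug-treated ones included. That spread may thus be technical. One treatment text covers all samples, with DMSO added 24 h after plating and RNA taken after 72 h, but the series text names this treatment for the edited lines only, so the culture time of the parental cells is uncertain.

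YAP, the product of YAP1, and its relative TAZ are transcriptional coactivators that bind DNA through the TEAD factors and turn on genes of growth, adhesion and the extracellular matrix. The LATS kinases of the Hippo pathway phosphorylate both and keep them out of the nucleus. In neuroblastoma, YAP activity is known to be higher in cells of the mesenchymal state than in cells of the adrenergic state, which are held by a circuit of transcription factors such as HAND2, GATA3 and MYCN.

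The guides are shown because they set which site of YAP1 was cut and how the lines differ by design. They are written 5′ to 3′ in lower case, and the capitals mark the PAM, the bases that Cas9 needs next to its target, as found beside the match in the GENCODE transcripts.
YAPKO1: cgccgtcatgaaccccaagaCGG
YAPKO2: gtgcacgatctgatgcccggCGG
sgCON: gcactcacatcgctacatca
The YAPKO1 guide matched exon 1 of YAP1 at chr11:102111058-102111077 on the plus strand of GRCh38, inside the coding sequence of 7 YAP1 transcripts out of 11. That of YAPKO2 matched chr11:102110997-102111016 on the minus strand in the same exon and the same number of transcripts. The scrambled guide had 0 exact matches among 206694 transcripts.

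YAP1 RNA (ENSG00000137693.9) was lower in YAPKO1 but still present. It stood at 13.2, 12.9 and 9.05 FPKM in the YAPKO1 libraries, against 29.4, 32.8 and 33.3 FPKM in the parental libraries. The groups did not overlap, and the log2 change was -1.42 ± 0.23 (SE, limma adjusted p = 0.000212). Mean levels were 11.7 ± 2.30 FPKM in YAPKO1, 2.89 ± 0.25 in YAPKO2, 25.6 ± 1.85 in sgCON and 31.8 ± 2.14 in parental cells (SD, n = 3 each). YAPKO1 was also below sgCON (log2 -1.12, adjusted p = 0.00365) and above YAPKO2 (log2 1.83, adjusted p = 4.69e-05). A small insertion or deletion in exon 1 can stop the protein without removing the RNA, so these are values of RNA and say nothing of protein.

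All levels here are FPKM, fragments per transcript length and sequencing depth, scaled between libraries, and changes are differences of log2(FPKM + 0.5), with a positive sign where YAPKO1 is higher. The files hold no counts, so the depth in reads is unknown. Depth relative to the first parental library, estimated from the steps between low values, ran from 0.853 to 1.11 over the 6 libraries, and 13937 to 14259 genes per library reached 1 FPKM. Protein-coding genes took 46.6% to 58.2% of all FPKM in YAPKO1 libraries, against 29.9% to 33.8% in parental libraries, and the 10 highest genes took 32.3% to 42.7% against 51.1% to 59.2%. The GC trend, the median deviation of GC-rich minus GC-poor genes from the mean over libraries, was -0.40, -0.22 and 0.68 (log2) in YAPKO1 libraries 1, 2 and 3, against -0.60 to -0.55 in parental libraries. YAPKO1 library 3 stood apart from the other two of its group, and results that lean on it are given without it.

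How far YAPKO1 had moved from parental cells is shown first over all genes. Of 16194 genes tested, 4393 were called at an adjusted p under 0.05 (27.1%), 2391 higher in YAPKO1 (14.8%) and 2002 lower (12.4%). Among 12192 protein-coding genes, 2095 were higher and 1705 lower. Of the called genes, 4254 had no overlap between the 3 and 3 libraries (26.3% of genes tested). A change of at least 2-fold was called for 438 genes that were higher and 704 that were lower. The log2 change followed the GC content of the transcripts across genes, with a Spearman rho of 0.371 over 15615 genes, which are not independent of each other. With each library corrected for GC content by a spline, 5312 of 15615 genes were called (34.0%), 2928 higher (18.8%) and 2384 lower (15.3%), and 3681 of them were among the 4393 with the same direction. In a fit on the 6 libraries alone 2728 genes were called, and without YAPKO1 library 3 the count was 3052.

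The parental cells also differed from sgCON, which carries no YAP1 guide. In sgCON 2550 genes were called against parental cells (15.7%), 1284 higher (7.93%) and 1266 lower (7.82%). Directly against sgCON, 1927 genes were called in YAPKO1 (11.9%), 993 higher (6.13%) and 934 lower (5.77%). Against YAPKO2, 1122 were called (6.93%), 521 higher in YAPKO1 (3.22%) and 601 lower (3.71%). The comparisons of YAPKO1 and of sgCON with parental cells share the parental libraries. Those of sgCON with parental cells and of YAPKO1 with sgCON share the sgCON libraries, which enter them with opposite signs. Those of YAPKO1 with sgCON and with YAPKO2 share the YAPKO1 libraries. Values are therefore set side by side below and no overlap is taken between them.

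**Figure D1:**
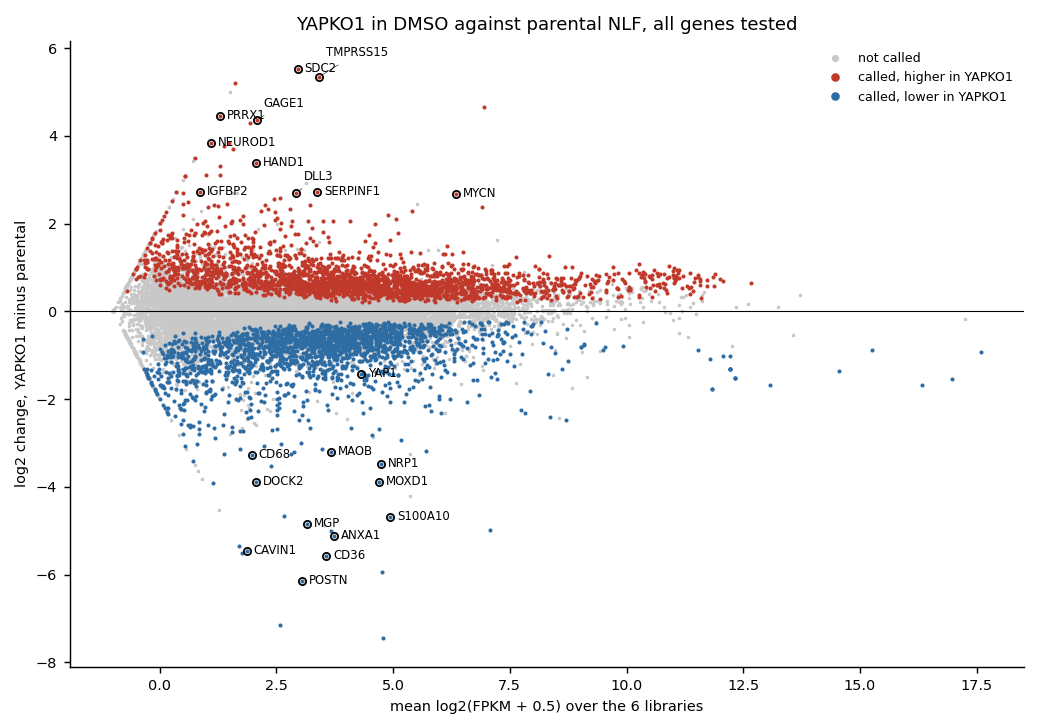
Change against level for all genes tested. The x axis is the mean log2(FPKM + 0.5) over the 6 libraries and the y axis the log2 change of YAPKO1 minus parental, with called genes in red (2391 higher) or blue (2002 lower), uncalled genes in grey and 22 genes ringed and named.

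The genes that gained most in YAPKO1 were transcription factors, receptors and secreted proteins that parental cells barely expressed. SDC2, a cell surface heparan sulphate proteoglycan, had 61.6, 52.2 and 43.3 FPKM in YAPKO1, against 0.52, 1.36 and 0.29 FPKM in parental cells (log2 change 5.52 ± 0.24, adjusted p = 6.89e-11). PRRX1, a homeobox factor of mesenchymal cells, had 12.9, 11.6 and 8.80 FPKM in YAPKO1, against 0, 0.019 and 0.059 in parental cells (log2 4.45 ± 0.20). Both were near silent in each parental library and well above 5 FPKM in each YAPKO1 library. HAND1, a basic helix-loop-helix factor related to HAND2, had 10.3, 14.6 and 14.2 FPKM in YAPKO1, against 0.56, 1.12 and 0.75 in parental cells (log2 3.37 ± 0.19). NEUROD1, a factor of neuronal differentiation, had 9.34, 8.75 and 5.27 FPKM in YAPKO1, against 0, 0.15 and 0.040 in parental cells (log2 3.85 ± 0.25).

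Among these 4 genes the other lines split. SDC2 averaged 52.4 FPKM in YAPKO1, 11.6 in YAPKO2, 0.68 in sgCON and 0.72 in parental cells. PRRX1 averaged 11.1 FPKM in YAPKO1 and 0.26 in YAPKO2, with 0.36 in sgCON and 0.026 in parental cells, so that YAPKO1 was above YAPKO2 by a log2 difference of 3.93 (adjusted p = 8.54e-10). HAND1 averaged 13 FPKM in YAPKO1 and 2.26 in YAPKO2, against 1.21 in sgCON and 0.81 in parental cells. NEUROD1 was high in both knockout lines, at 7.79 FPKM in YAPKO1 and 12.4 in YAPKO2, against 0.33 in sgCON and 0.064 in parental cells, and the knockout lines did not differ beyond the threshold for this gene (adjusted p = 0.149).

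Other large rises had the same form. The PACAP receptor ADCYAP1R1 averaged 10.3 FPKM in YAPKO1 and 0.34 in parental cells, and the lysophosphatidic acid receptor LPAR3 averaged 10.1 and 0.24 FPKM. TNNI1, the slow skeletal muscle form of troponin I, averaged 9.11 FPKM in YAPKO1 and 0.22 in parental cells. The growth factor binding genes IGFBPL1 (16.8 FPKM in YAPKO1, 0.38 in parental cells) and IGFBP2 (4.22 and 0.21 FPKM) rose too, as did SERPINF1, a secreted factor of the serpin family (26.1 and 3.55 FPKM), and PLSCR5, of the phospholipid scramblase family (7.41 and 0.28 FPKM). DLL3, a ligand that dampens Notch signalling, averaged 19.2 FPKM in YAPKO1 and 2.49 in parental cells (log2 2.71 ± 0.17). In sgCON SERPINF1 (9.05 FPKM), DLL3 (4.09), IGFBPL1 (1.47), PLSCR5 (1.31) and IGFBP2 (0.83) were also called above parental cells. ADCYAP1R1, LPAR3 and TNNI1 were not. TMPRSS15, which encodes enteropeptidase, averaged 70.9 ± 27.1 FPKM in YAPKO1, 89.4 ± 24.5 in YAPKO2, 27.3 ± 1.5 in sgCON and 1.16 ± 0.070 in parental cells, so most of its distance from parental cells was present in sgCON. GAGE1 (18.6 FPKM in YAPKO1, 0.44 in parental cells) also rose, but it belongs to a family of near-identical copies among which reads may be split, and its value is uncertain.

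The 15 largest falls named by rule were all of genes above 10 FPKM on average in parental cells. POSTN, the matrix protein periostin, had 0.63, 0.69 and 0.19 FPKM in YAPKO1, against 65.9, 69.1 and 70.3 FPKM in parental cells (log2 -6.14 ± 0.34, adjusted p = 9.2e-10). CD36, a fatty acid receptor, had 1.60, 1.27 and 0.84 FPKM in YAPKO1, against 74.3, 83.0 and 85.9 in parental cells (log2 -5.57 ± 0.22). S100A10, the partner of annexin A2, had 7.32, 3.00 and 7.45 FPKM in YAPKO1, against 171, 127 and 167 in parental cells (log2 -4.68 ± 0.29). In all 3 genes every YAPKO1 library lay far below every parental library, and a lack of overlap was part of the rule that named them.

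These losses were seen to different degrees elsewhere. POSTN averaged 0.50 FPKM in YAPKO1, 1.25 in YAPKO2, 20.0 in sgCON and 68.4 in parental cells. CD36 averaged 1.24 FPKM in YAPKO1, 0.18 in YAPKO2, 20.8 in sgCON and 81.1 in parental cells. S100A10 averaged 5.92 FPKM in YAPKO1 and 0.063 in YAPKO2, against 140.2 in sgCON and 155 in parental cells. The first and second of these thus stood between the knockout lines and parental cells in sgCON, while S100A10 in sgCON did not differ from parental cells beyond the threshold (log2 -0.13, adjusted p = 0.822).

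CAVIN1, which is needed to build caveolae, averaged 0.047 FPKM in YAPKO1 and 23.7 in parental cells (log2 -5.47 ± 0.15, adjusted p = 1.15e-13). ANXA1, a phospholipid-binding annexin, averaged 1.96 FPKM in YAPKO1 and 78.5 in parental cells, and MGP, a matrix protein that restrains calcification, averaged 1.20 and 47.6 FPKM. The Rac activator DOCK2 (0.60 FPKM in YAPKO1, 15.7 in parental cells), the potassium channel subunit KCNAB1 (0.75 and 31.6 FPKM), the cation channel TRPM3 (1.12 and 17.3 FPKM) and the carboxypeptidase CPA4 (0.010 and 20.2 FPKM) fell as well. MOXD1, an enzyme related to dopamine beta-hydroxylase, averaged 6.43 FPKM in YAPKO1, 0.30 in YAPKO2, 49.6 in sgCON and 99.4 in parental cells. NRP1, a receptor for semaphorins and VEGF, averaged 7.49 FPKM in YAPKO1, 11.5 in YAPKO2, 30.4 in sgCON and 88.7 in parental cells. HBEGF, a ligand of the EGF receptor, and MAOB, a monoamine oxidase, fell by log2 changes of -3.24 and -3.20, and MME, the membrane peptidase neprilysin, by -2.47. MME averaged 3.36 FPKM in YAPKO1 and 0.067 in YAPKO2, against 21.4 in sgCON and 20.8 in parental cells. The control-guide line held part of several falls named here. In sgCON CPA4 averaged 1.67 FPKM, MGP 6.68, TRPM3 3.29, DOCK2 3.73, KCNAB1 9.67 and CAVIN1 8.04, all called below parental cells. So were HBEGF, at 3.33 FPKM against 21.1, and MAOB, at 21.8 against 38.2. ANXA1 there stood at 42.5 FPKM and was not called (limma adjusted p = 0.0534).

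**Figure D2:**
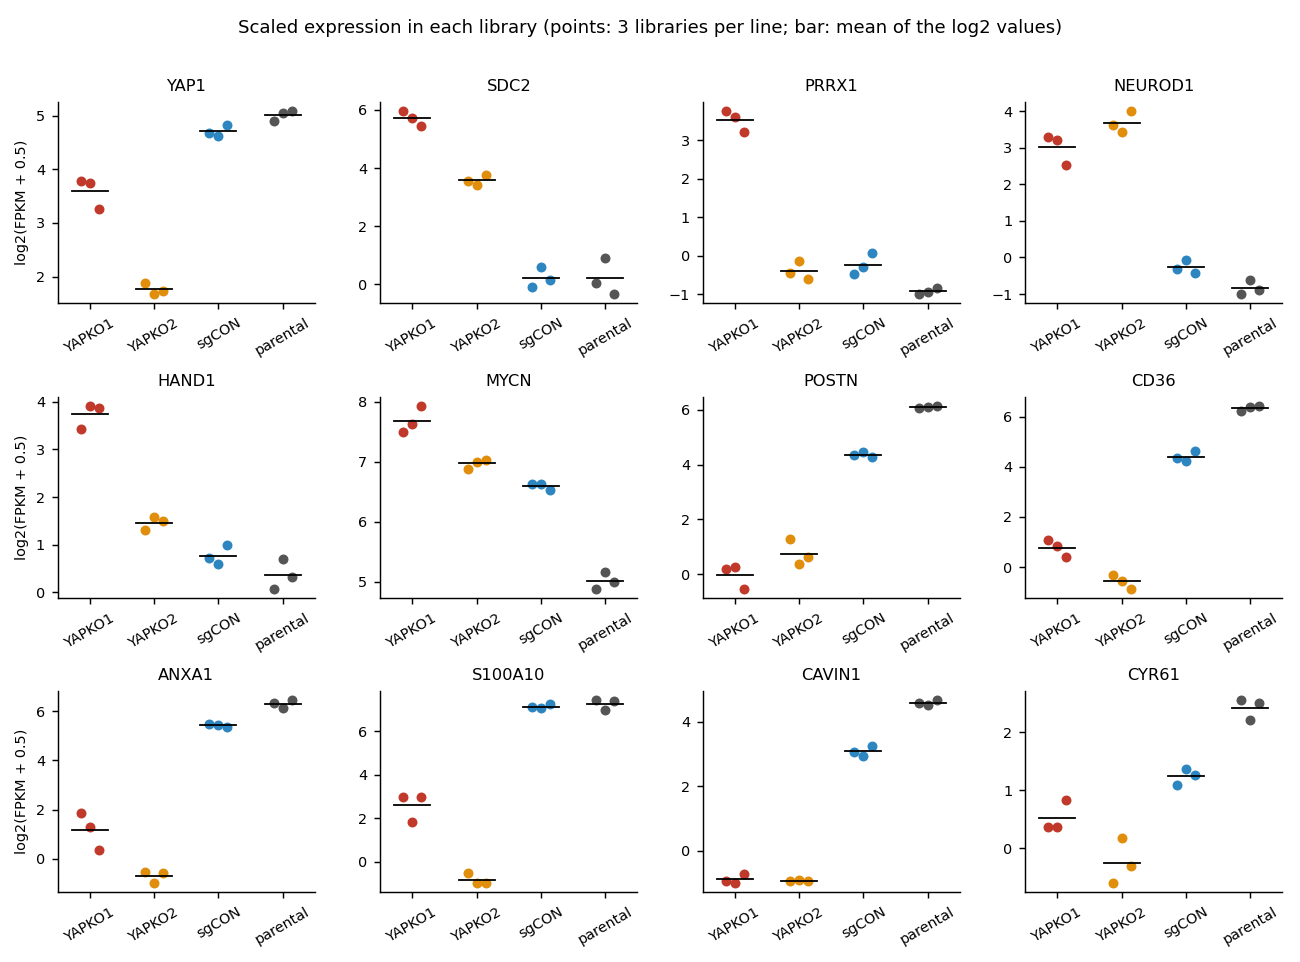
Scaled expression of 12 genes in every library. Each panel is 1 gene, the y axis is log2(FPKM + 0.5), points are the 3 libraries of YAPKO1, YAPKO2, sgCON (all in DMSO) and parental cells, and the bar is the mean of the log2 values. YAPKO1 lies apart from the parental libraries in all 12 panels, while sgCON lies near the parental libraries for S100A10 and SDC2 and between for POSTN and MYCN.

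YAP and TAZ act through TEAD, and a list of 28 genes known to respond to them was examined, of which 23 were measured. In YAPKO1 4 of the 23 were higher and 11 lower than in parental cells, with a median log2 change of -0.52, against -0.00 over all genes tested and the shares of 14.8% and 12.4% given above. CYR61, a secreted matricellular protein and a standard readout of YAP, had 0.80, 0.80 and 1.28 FPKM in YAPKO1, against 5.35, 4.13 and 5.19 in parental cells (log2 -1.90 ± 0.23, adjusted p = 8.95e-06). CTGF, its close relative, had 0.38, 0.30 and 0.35 FPKM in YAPKO1, against 2.00, 1.81 and 2.44 in parental cells (log2 -1.60 ± 0.25). Both were already low in parental cells, at a few FPKM.

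The membrane repair protein MYOF fell to 0.093 FPKM in YAPKO1, against 2.83 in parental cells. AJUBA, a LIM protein that binds LATS, fell to 8.45 FPKM in YAPKO1, against 24.1 in parental cells, and AMOTL2, an angiomotin that binds YAP, to 7.32 against 19.1. Further falls were those of CCDC80 (log2 -1.30), TEAD1 (-0.94), the receptor kinase AXL (-0.92), RBMS3 (-0.81), PTPN14 (-0.64) and LATS2 (-0.52). RBMS3 lost its call under the GC correction. LATS2 lost it in the fit on the 6 libraries alone, after quantile normalization, and without YAPKO1 library 2 or parental library 2 or 3. The 4 members that were higher do not follow the list's usual direction. They were GADD45A, a stress-induced gene (54.7 FPKM in YAPKO1, 24.7 in parental cells), FJX1 (12.3 and 6.71 FPKM), the Hippo scaffold WWC1 (log2 0.62) and the angiomotin AMOTL1 (log2 0.47). The call of WWC1 was lost under the GC correction and without YAPKO1 library 3 or parental library 2 or 3.

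The control-guide line also held lower members of this list. In sgCON 3 of the 23 were higher and 8 lower than in parental cells, and in YAPKO1 0 were higher and 6 lower than in sgCON, with a median log2 difference of -0.15. CYR61 averaged 0.96 FPKM in YAPKO1, 0.37 in YAPKO2, 1.87 in sgCON and 4.89 in parental cells. AMOTL2 averaged 7.32 FPKM in YAPKO1, 4.89 in YAPKO2, 7.39 in sgCON and 19.1 in parental cells, and AXL 1.46, 1.18, 1.41 and 3.20 FPKM in the same lines. The difference between YAPKO1 and sgCON passed the threshold for CYR61 (log2 -0.71, adjusted p = 0.0475), MYOF (-1.10), PTPN14 (-0.72), LATS2 (-0.58), CRIM1 (-3.09) and GADD45A (-0.43). CRIM1, a transmembrane protein, stood at 0.49 FPKM in YAPKO1 and 0.74 in parental cells but at 6.99 in sgCON. NUAK2, a kinase, did not differ between YAPKO1 and parental cells (0.86 and 0.89 FPKM, adjusted p = 0.958), while it stood at 3.89 FPKM in YAPKO2.

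A stretch of the CTGF promoter is shown because it holds the letters that TEAD factors are known to bind, CATTCC, read on the other strand as GGAATG.
CTGF: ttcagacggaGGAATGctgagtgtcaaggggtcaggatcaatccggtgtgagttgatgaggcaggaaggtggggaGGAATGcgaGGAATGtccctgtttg
The stretch lies at chr6:131951452-131951551 on the minus strand of GRCh38.p14 (RefSeq gene CCN2), from 179 to 80 bases before the start of transcription, and the capitals mark the 3 matches. Searched on both strands in the 250 bases before and 50 after the start, 7 of the 19 promoters of the list found in the RefSeq table held the letters, against 14% of 35116 promoters. The promoters of CYR61 and GADD45A were not among the 19, and those of MYOF, AJUBA and AMOTL2, which fell, held no match. A match is a description of the sequence and not a site of binding.

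In the Hippo pathway list, with YAP1 itself among 30 measured genes, 5 were higher and 8 lower (median -0.20). The shares over all genes were 14.8% and 12.4%. FAT4, an atypical cadherin upstream of the kinases, fell to 2.84 FPKM in YAPKO1, against 6.80 in parental cells, and FRMD6, a scaffold of the kinases, to 10.0 against 18.5. WWTR1, which encodes TAZ, had 5.05, 4.39 and 4.84 FPKM in YAPKO1, against 6.78, 4.86 and 5.01 in parental cells, with overlapping groups (adjusted p = 0.442). WWTR1 was singled out after its values were seen. Without YAPKO1 library 3, 1 was higher and 7 lower.

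**Figure D3:**
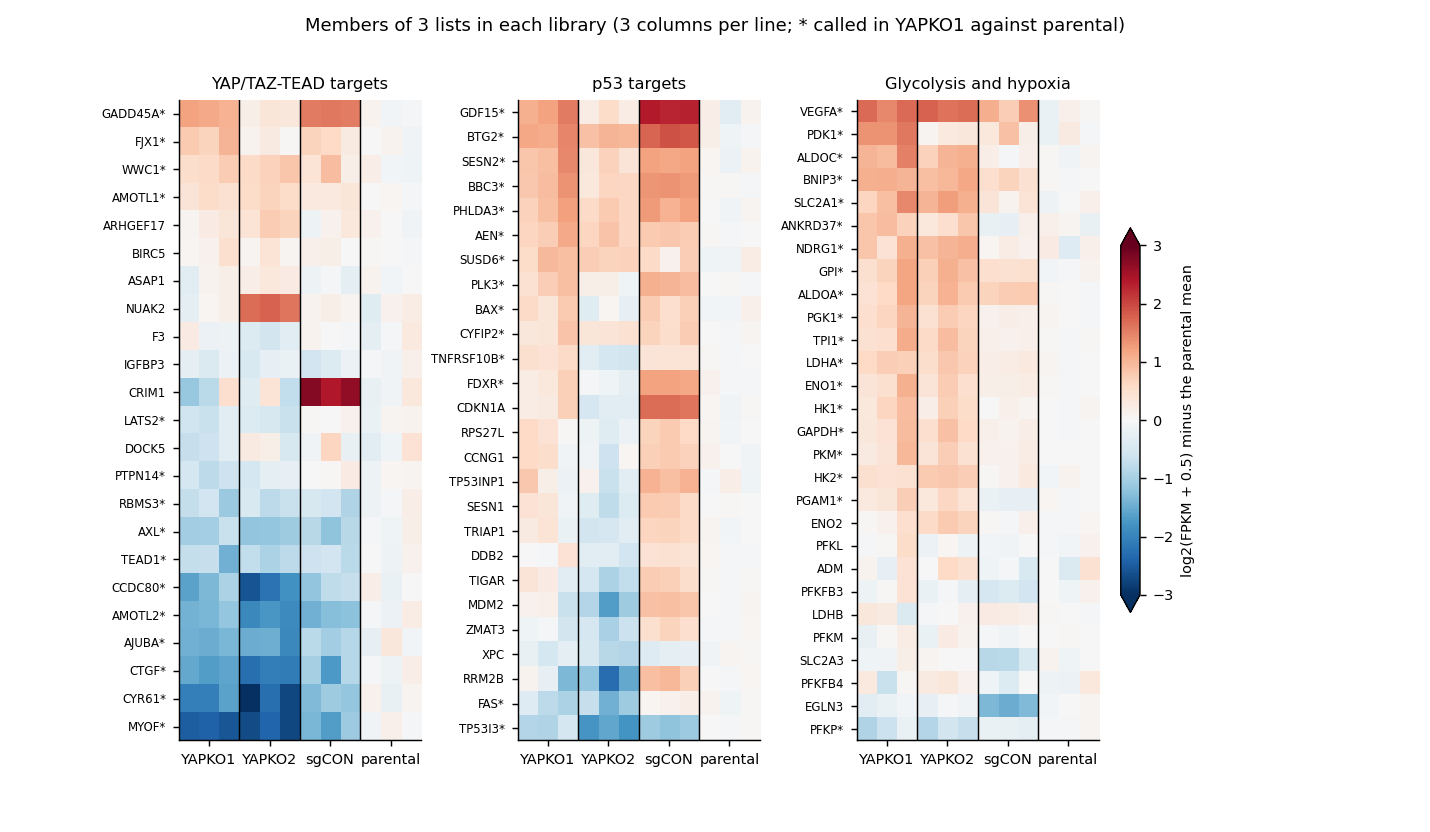
Members of 3 lists in each of 12 libraries. Rows are measured genes ordered by the change in YAPKO1, columns are the 3 libraries each of YAPKO1, YAPKO2, sgCON and parental cells, and the colour is log2(FPKM + 0.5) minus the parental mean, capped at 3 either way, with an asterisk on genes called in YAPKO1 against parental cells. CYR61, AMOTL2 and AXL are blue in all 3 edited lines, and GDF15 and BTG2 are darkest red in sgCON. VEGFA and BNIP3 are red in both knockout lines and less so in sgCON, at log2 1.07 and 0.54 above parental cells.

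Extracellular matrix genes were mostly lower, with 2 of 24 measured members higher and 14 lower (median -0.79). After POSTN, TGFBI, a matrix protein that transforming growth factor beta induces, had 0.36, 0.87 and 0.68 FPKM in YAPKO1, against 6.32, 11.4 and 10.9 in parental cells. COL6A3, a chain of collagen VI, fell to 9.29 FPKM in YAPKO1, against 41.1 in parental cells, and FSTL1, a secreted glycoprotein, to 31.3 against 127. DCN, the small proteoglycan decorin, had 14.6, 11.2 and 11.8 FPKM in YAPKO1, against 96.7, 99.7 and 99.4 in parental cells (log2 -2.94 ± 0.16). The lines did not share this fall. DCN averaged 12.5 FPKM in YAPKO1, 208.7 in YAPKO2, 13.9 in sgCON and 98.6 in parental cells, so that YAPKO1 lay with sgCON and the knockout lines lay on opposite sides of parental cells. In sgCON 2 matrix genes were higher and 8 lower than in parental cells, and in YAPKO1 2 were higher and 9 lower than in sgCON.

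The adhesion list of integrins, laminins and cadherins had 2 of 29 members higher and 16 lower (median -0.61). The cadherin CDH6 fell to 3.30 FPKM in YAPKO1, against 32.2 in parental cells, with 8.19 in YAPKO2 and 13 in sgCON. The collagen-binding integrin chains ITGA1 (19.4 FPKM in YAPKO1, 62.6 in parental cells) and ITGA2 (2.25 and 8.0 FPKM) and the vitronectin-binding chain ITGB5 (66.5 and 192 FPKM) were lower. SDC2 is also in this list and went the other way. Of 16 annexin and S100 genes 2 were higher and 8 lower (median -0.54), and these included the giant scaffold AHNAK (log2 -1.35) and S100A16 (-1.27), while ANXA6 rose (1.07). Of the 3 caveolae genes that passed the filter CAVIN1 and CAVIN2 (1.77 FPKM in YAPKO1, 8.64 in parental cells) fell, and PACSIN2 did not change beyond the threshold (15 and 16.5 FPKM). The other 7 caveolae genes of the list were below the filter.

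Genes of BMP and transforming growth factor beta signalling had 0 of 20 members higher and 10 lower (median -0.42). The BMP antagonist GREM1 had 0.077, 0.13 and 0.12 FPKM in YAPKO1, against 4.59, 4.29 and 4.5 in parental cells (log2 -3.02 ± 0.18). The ligand TGFB3 fell to 5.29 FPKM in YAPKO1, against 24.9 in parental cells, and the receptor TGFBR2 to 1.36 against 4.27. Both were as low in sgCON, at 4.36 and 1.45 FPKM, and sgCON had 0 members higher and 11 lower than parental cells.

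Neuroblastoma cells of the adrenergic state express noradrenergic and neuronal genes. Of 22 measured adrenergic genes 11 were higher and 1 lower in YAPKO1 (median 0.29). SLC6A2, the noradrenaline transporter, averaged 13.4 FPKM in YAPKO1 and 3.17 in parental cells, but also 12.2 in sgCON. DBH, which makes noradrenaline, averaged 1.02 FPKM in YAPKO1 and 0.19 in parental cells. ALK, a receptor kinase often mutated in neuroblastoma, had 0.51, 0.47 and 0.45 FPKM in YAPKO1 and was listed at 0 in all 3 parental libraries.

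The proneural and Notch list had 11 of 19 members higher and 4 lower (median 0.53), and 9 higher and 4 lower with the GC correction (median 0.26). HES6, a helix-loop-helix gene of neuronal differentiation, had 86.2, 87.5 and 107 FPKM in YAPKO1, against 17.7, 19.1 and 19 in parental cells (log2 2.29 ± 0.13). It stood at 80.7 FPKM in YAPKO2 and 52.3 in sgCON. MFNG, a glycosyltransferase that modifies Notch, had 1.32, 0.94 and 1.06 FPKM in YAPKO1 and was listed at 0 in the parental libraries. Without YAPKO1 library 3, 7 members were higher and 4 lower.

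Mesenchymal neuroblastoma genes had 2 of 18 members higher and 6 lower (median -0.21). The lower ones included YAP1 and the AP-1 subunits FOSL2 (9.87 FPKM in YAPKO1, 24.0 in parental cells) and JUN (1.64 and 4.34 FPKM). The 2 higher ones were PRRX1 and TWIST1, a helix-loop-helix factor at 106, 106 and 113 FPKM in YAPKO1, against 49.9, 51.5 and 56.4 in parental cells. Both are factors known for the mesenchymal state, so members of this list moved in opposite directions.

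Neurite and microtubule genes had 10 of 22 members higher and 2 lower (median 0.32), and 5 and 3 in the fit on the 6 libraries alone. ELAVL3, a neuronal RNA-binding protein, averaged 8.70 FPKM in YAPKO1 and 3.33 in parental cells, and PRPH, the intermediate filament peripherin, 55.5 and 23.2 FPKM. GAP43, a protein of growth cones, went the other way, at 43.2 FPKM in YAPKO1, 142 in YAPKO2, 55.7 in sgCON and 110 in parental cells. Of 17 ion channel and nicotinic receptor genes 8 were higher and 5 lower. CHRNA3, the nicotinic subunit of sympathetic ganglia, had 64.6, 62.9 and 62.6 FPKM in YAPKO1, against 14.3, 21 and 19.2 in parental cells (log2 1.79 ± 0.13). With its partner CHRNB4 (7.5 and 2.68 FPKM) it rose in YAPKO1, while sgCON did not differ from parental cells for CHRNA3 beyond the threshold (14.6 FPKM, adjusted p = 0.15). The sodium channel SCN9A fell to 22.2 FPKM in YAPKO1, against 74.8 in parental cells. Synaptic vesicle and granule genes were split, with 6 of 23 higher and 5 lower, against shares of 14.8% and 12.4% over all genes, and with 3 higher and 6 lower without YAPKO1 library 3. The synapsin SYN2 rose (10.0 FPKM in YAPKO1, 3.24 in parental cells), and the secreted peptide genes NPY (10.2 and 48.8 FPKM) and VGF (1.45 and 6.44 FPKM) fell.

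MYCN (ENSG00000134323.10), the amplified oncogene of this line, had 179, 197 and 244 FPKM in YAPKO1, against 29.1, 35.3 and 31.4 FPKM in parental cells. The lowest YAPKO1 library was far above the highest parental library, and the log2 change was 2.67 ± 0.12 (adjusted p = 8.68e-11). Mean levels were 207 ± 33.5 FPKM in YAPKO1, 125 ± 7.03 in YAPKO2, 96.4 ± 3.59 in sgCON and 31.9 ± 3.17 in parental cells (SD, n = 3 each). Thus sgCON was above parental cells by 1.58 (log2, adjusted p = 1.83e-07) and YAPKO1 above sgCON by 1.09 (adjusted p = 1.04e-05) and above YAPKO2 by 0.71 (adjusted p = 0.00106). MYCL, another member of the MYC family, averaged 3.52 FPKM in YAPKO1, 4.17 in YAPKO2, 2.44 in sgCON and 0.48 in parental cells.

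In the list of MYC and MYCN targets and ribosome biogenesis genes, which holds MYCN, 10 of 32 measured members were higher and 2 lower (median 0.20). Lactate dehydrogenase LDHA (613 FPKM in YAPKO1, 381 in parental cells), the nucleotide kinase NME1 (586 and 345 FPKM) and FBL, which methylates ribosomal RNA (318 and 177 FPKM), were higher. Cytosolic ribosomal protein genes rose broadly, with 61 of 72 higher and 0 lower (median 0.63). The extent depended on how libraries are scaled: 33 were higher and 2 lower after quantile normalization (median 0.25), while 65 were higher with the GC correction. In sgCON 35 were higher and 0 lower than in parental cells.

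Protein-coding transcripts took a larger share of FPKM in YAPKO1, as given above, and all other genes together a smaller one. Of 44 small nuclear RNA genes 1 was higher and 14 lower (median -1.05). Of 119 small nucleolar RNA genes 8 were higher and 17 lower (median -0.42). The shares over all genes were 14.8% higher and 12.4% lower, so the lower count of small nucleolar RNA genes was near that share. SNORD3A, the U3 RNA of ribosomal RNA processing, averaged 47198 FPKM in YAPKO1 and 148284 in parental cells. The small nuclear RNA genes include near-identical copies. The effect of this composition on the gene lists was not tested.

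Genes of the respiratory chain moved in opposite directions by genome. Of 13 mitochondrially encoded genes 0 were higher and 10 lower (median -1.14), and of 28 nuclear-encoded ones 13 were higher and 0 lower (median 0.33). MT-ND5, a subunit of complex I, had 30.2, 18.4 and 24.7 FPKM in YAPKO1, against 112, 111 and 104 in parental cells (log2 -2.16 ± 0.23). MT-CYB, of complex III, averaged 68.9 FPKM in YAPKO1, 84.8 in YAPKO2, 107 in sgCON and 156 in parental cells. In sgCON 2 were higher and 6 lower than in parental cells, and in YAPKO1 0 were higher and 5 lower than in sgCON. Mitochondrially encoded protein genes made up 0.77% to 0.86% of the FPKM of protein-coding genes in YAPKO1, against 1.07% to 1.14% in parental cells. As a share of all FPKM, mitochondrial genes ran the other way, at 0.37% to 0.51% in YAPKO1 and 0.33% to 0.39% in parental cells, and the summed FPKM of the 13 genes overlapped, at 5256 to 6357 in YAPKO1 and 6254 to 6529.9 in parental cells. The nuclear genes COX5A, of complex IV, and NDUFA9, of complex I, averaged 289 and 123 FPKM in YAPKO1, against 173 and 78.4 in parental cells. Fewer mitochondrial transcripts per cell and more of all other RNA cannot be told apart in bulk samples. Without YAPKO1 library 3 the nuclear list had 7 higher and 0 lower, and the mitochondrial list was at 0 and 10.

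Glycolysis and hypoxia genes had 18 of 28 members higher and 1 lower in YAPKO1 (median 0.60), with 18 and 1 under the GC correction and 10 and 1 without YAPKO1 library 3. VEGFA, the angiogenic factor that hypoxia induces, had 17.4, 14.6 and 17.6 FPKM in YAPKO1, against 4.33, 5.70 and 5.21 in parental cells (log2 1.61 ± 0.18). PDK1, the kinase that turns pyruvate away from mitochondria, had 12.1, 12.1 and 14.2 FPKM in YAPKO1, against 3.80, 5.41 and 4.21 in parental cells. The glucose transporter SLC2A1 (31.3 FPKM in YAPKO1, 15 in parental cells), the aldolase ALDOC (34.0 and 14.7 FPKM) and the mitophagy receptor BNIP3 (76.4 and 36.4 FPKM) rose about equally. Against sgCON 12 members were higher in YAPKO1 and 0 lower, while 3 were higher and 2 lower in sgCON than in parental cells. VEGFA and BNIP3 were among those higher in sgCON, at 11.4 and 53.2 FPKM. For VEGFA the difference between YAPKO1 and sgCON did not pass the threshold (limma adjusted p = 0.0571). PDK1 averaged 12.8 FPKM in YAPKO1, 5.36 in YAPKO2, 6.44 in sgCON and 4.47 in parental cells, and YAPKO1 was above YAPKO2 (log2 1.18, adjusted p = 0.00164).

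Genes of the ATF4 pathway and the unfolded protein response had 13 of 25 members higher and 4 lower (median 0.56). DDIT4, a stress-induced inhibitor of mTOR, had 41.1, 46.1 and 59.0 FPKM in YAPKO1, against 11.8, 11.3 and 12 in parental cells (log2 1.99 ± 0.13). The factor ATF3 (5.26 FPKM in YAPKO1, 1.65 in parental cells) and the amino acid transporter SLC7A5 (12.2 and 4.5 FPKM) were higher, and EDEM1, of protein degradation in the endoplasmic reticulum, and the cystine transporter SLC7A11 were lower (log2 -1.28 and -1.12). In sgCON 10 members were higher and 3 lower than in parental cells, and ATF3 there stood at 8.03 FPKM.

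Targets of p53 stood higher in YAPKO1 than in parental cells for 12 of 26 measured members and lower for 2 (median 0.38). GDF15, a secreted stress factor, had 30.6, 33.6 and 43.1 FPKM in YAPKO1, against 16.7, 11.4 and 15.6 in parental cells (log2 1.27 ± 0.22). The antiproliferative gene BTG2 averaged 26.4 FPKM in YAPKO1 and 10.8 in parental cells, the stress sensor SESN2 21.5 and 9.91, PHLDA3, which restrains AKT, 53.1 and 27.2, and BBC3, the death gene PUMA, 19.2 and 9.03 FPKM. The list was also examined in sgCON. There 18 of 26 were higher and 1 lower than in parental cells (median 0.72), and in YAPKO1 0 were higher and 7 lower than in sgCON. GDF15 averaged 35.8 FPKM in YAPKO1, 18.3 in YAPKO2, 73.9 in sgCON and 14.6 in parental cells. Against YAPKO2 14 were higher in YAPKO1 and 0 lower. Of 14 BCL2 family genes, BBC3 among them, 4 were higher and 0 lower, including the pore-forming BAX (87.2 FPKM in YAPKO1, 58.2 in parental cells).

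Genes of DNA replication and of mitosis were counted separately. Of 41 E2F target and replication genes 3 were higher and 13 lower (median -0.15), and without YAPKO1 library 3 the counts were 1 and 8. Thymidine kinase TK1 had 69.2, 72.4 and 105 FPKM in YAPKO1, against 145, 141 and 143 in parental cells (log2 -0.82 ± 0.20). The checkpoint gene CLSPN (15.1 FPKM in YAPKO1, 32.6 in parental cells) and the repair gene BRCA1 (14.3 and 28.4 FPKM) also fell. Of 34 mitosis genes 2 were higher and 6 lower, against shares of 14.8% and 12.4% over all genes. The counts were 0 and 3 without YAPKO1 library 3 and 5 and 6 with the GC correction (median -0.04). This list thus showed no steady direction. CENPF, a kinetochore protein, shows the role of that library, with 76.5, 52.1 and 14.7 FPKM in YAPKO1, against 83.9, 94.0 and 92.5 in parental cells, and it was not called (adjusted p = 0.204). ECT2, which directs cytokinesis, was called (36.5 FPKM in YAPKO1, 92.9 in parental cells). Replication-dependent histone genes had 10 of 16 members higher and 0 lower (median 0.73), but 2 and 0 without YAPKO1 library 3 and 4 and 0 after quantile normalization. Many of them are near-identical copies whose RNA lacks a poly(A) tail, and their values are uncertain.

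ERK signalling is the target of the drug used elsewhere in the series. Of 18 MEK/ERK output genes 3 were higher and 6 lower (median -0.00), against shares of 14.8% and 12.4% over all genes. CCND1, the cyclin D1 gene, had 84.6, 84.5 and 97.0 FPKM in YAPKO1, against 222, 253 and 236 in parental cells (log2 -1.42 ± 0.10, adjusted p = 1.25e-08). It stood at 95.1 FPKM in YAPKO2 and 83.7 in sgCON, so all 3 edited lines stood below parental cells. DUSP6, a phosphatase that ERK induces against itself, fell to 8.73 FPKM in YAPKO1, against 15.7 in parental cells, while it was 24.4 in sgCON. EMP1, a membrane protein, fell (0.55 and 5.82 FPKM), and the feedback inhibitor SPRY1 (5.26 and 2.52 FPKM) and the early gene IER3 (1.64 and 0.18 FPKM) rose. Of 18 core genes of the RAS and MAPK cascade 0 were higher and 6 lower, and 0 and 2 without YAPKO1 library 3.

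Receptor tyrosine kinase genes moved both ways, with 8 of 28 higher and 8 lower, against shares of 14.8% and 12.4% over all genes. Without YAPKO1 library 3, 6 were higher and 6 lower. The ephrin receptor EPHB2 had 11.4, 10.3 and 13.2 FPKM in YAPKO1, against 1.89, 2.34 and 1.82 in parental cells, and the neurotrophin receptor NTRK3 averaged 12.1 FPKM in YAPKO1, 15.2 in YAPKO2, 0.79 in sgCON and 2.67 in parental cells. NTRK3 was thus high in both knockout lines and lowest in sgCON. ERBB4, a neuregulin receptor, fell to 1.53 FPKM in YAPKO1, against 5.34 in parental cells. Axon guidance genes were also split (8 of 28 higher, 8 lower, against the same shares). The semaphorins SEMA3C (0.16 FPKM in YAPKO1, 3.51 in parental cells) and SEMA3D (10.8 and 36.2 FPKM) fell, and SEMA6A (11.4 and 3.71 FPKM) rose. The semaphorin receptor PLXNA4 was at 2.73 FPKM in YAPKO1, 4.18 in YAPKO2, 0.88 in sgCON and 9.29 in parental cells.

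Interferon response genes had 2 of 19 members higher and 7 lower (median -0.41). The RNA sensor DDX58 fell to 0.67 FPKM in YAPKO1, against 2.93 in parental cells, and IFI44L, an interferon-induced gene, had 15.6, 12.9 and 6.83 FPKM in YAPKO1, against 38.9, 35.6 and 35.0 in parental cells. BST2, which tethers viruses, fell to 6.37 FPKM in YAPKO1, against 17.6 in parental cells, and was lower still in YAPKO2 (2.28) and sgCON (2.02). Of 10 class I antigen presentation genes 1 was higher and 2 were lower, against shares of 14.8% and 12.4% over all genes. The lower ones included the peptide trimmer ERAP1 (2.86 FPKM in YAPKO1, 12 in parental cells).

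Metabolic and lysosomal sets were examined as well. Cholesterol synthesis genes had 8 of 25 higher and 0 lower (median 0.30), 4 and 1 without YAPKO1 library 3, with FDFT1, squalene synthase, at 130.2 FPKM in YAPKO1 and 78.8 in parental cells. NRF2 and glutathione genes had 3 of 24 higher and 4 lower, near the shares of 14.8% and 12.4% over all genes. Without YAPKO1 library 3 the counts were 1 and 3. NQO1 (79.8 and 135 FPKM) and SRXN1 (12 and 20.4 FPKM), both antioxidant enzymes, were among the lower ones. Lysosome and autophagy genes had 3 of 25 higher and 6 lower, against the same shares. Of 39 HOX genes 4 passed the filter and 0 were called. In the fit on the 6 libraries alone, several counts were lower by more than 1.5 times. There 2 were higher and 6 lower in the Hippo list, 1 and 5 in the E2F list and 0 and 4 in the mitosis list. The counts were 2 and 3 in the synaptic list, 0 and 2 in the RAS list and 2 and 0 in the cholesterol list. They were 7 and 0 in the nuclear respiratory chain list and 4 and 0 in the histone list. The receptor tyrosine kinase list had 6 and 4 and the NRF2 list 1 and 3.

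**Figure D4:**
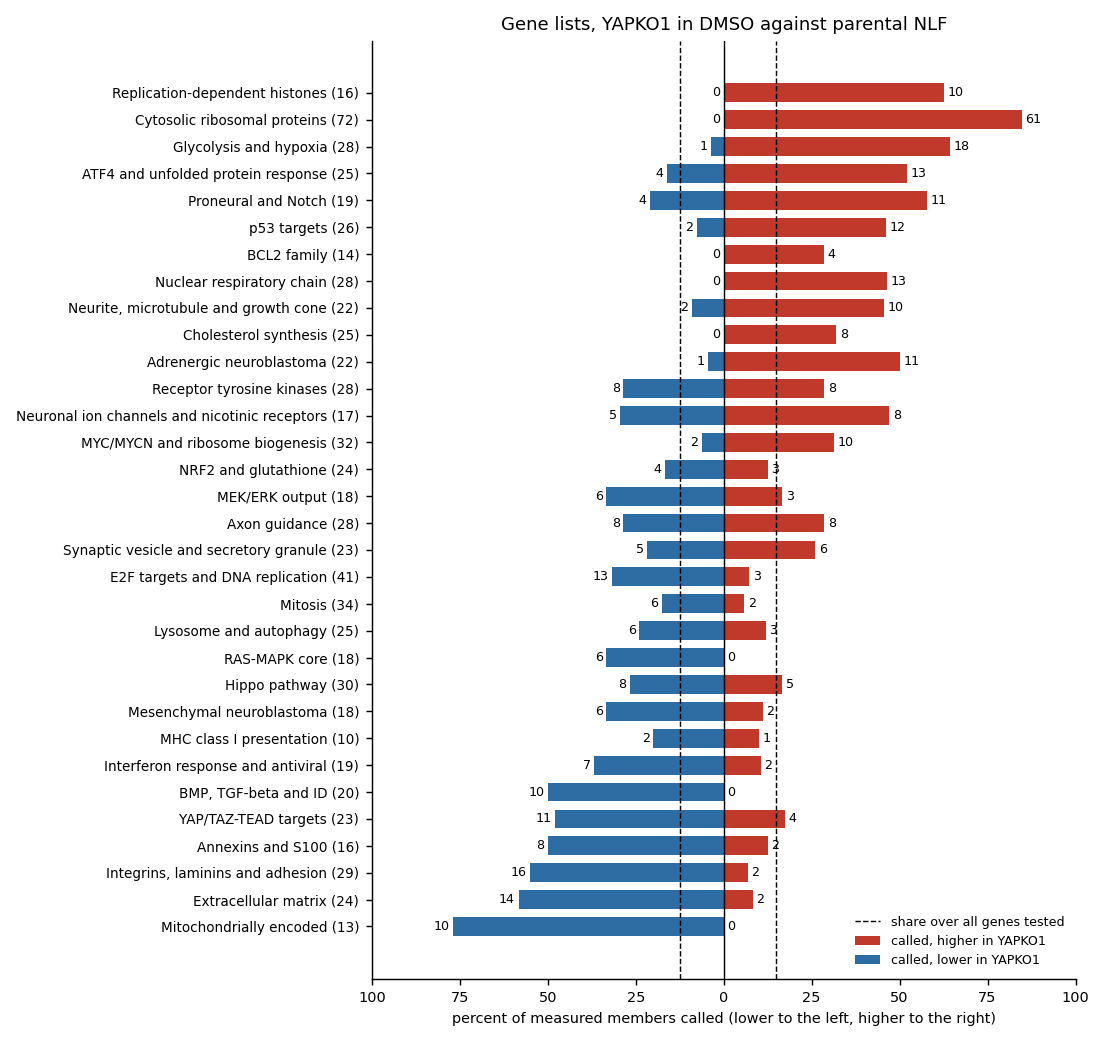
Share of each list called in YAPKO1 against parental cells. Bars run right for members that were higher and left for members that were lower, in percent of measured members (the number in brackets), with the number called at each end, ordered by the median log2 change; dashed lines are the shares over all genes tested, 14.8% higher and 12.4% lower. Ribosomal proteins stand out on the right (61 of 72) and mitochondrially encoded genes on the left (10 of 13).

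A group of genes was chosen for changes that YAPKO1 and the control-guide line both had. These genes were called in the same direction in YAPKO1 and in sgCON and did not differ between them at an adjusted p under 0.05, which does not show that they were equal. LRRC17, a secreted leucine-rich repeat protein, had 22.7, 18.3 and 11.5 FPKM in YAPKO1, against 160.4, 156 and 155 in parental cells, and averaged 17.5 FPKM in both YAPKO1 and sgCON and 13.2 in YAPKO2. ANGPTL4, an inhibitor of lipoprotein lipase, averaged 2.51 FPKM in YAPKO1, 3.47 in sgCON and 22.6 in parental cells. CREB3L3, a transcription factor known from liver, averaged 0.20 FPKM in YAPKO1, 0.41 in sgCON and 4.27 in parental cells, the corepressor gene TLE6 1.51, 1.41 and 8.98 FPKM, and the keratin gene KRT7 0.16, 0.027 and 3.5 FPKM. HSD3B1, a steroid dehydrogenase, was listed at 0 in all YAPKO1 libraries and averaged 2.07 FPKM in parental cells. MT1E, a metallothionein with close paralogs, averaged 0.38 FPKM in YAPKO1, 0.43 in sgCON and 5.68 in parental cells.

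Among shared rises, FBXO32, a ubiquitin ligase known from muscle wasting, averaged 14.1 FPKM in YAPKO1, 7.90 in YAPKO2, 11.4 in sgCON and 2.99 in parental cells. PDLIM4, a LIM protein of the actin cytoskeleton, averaged 34.7 FPKM in YAPKO1, 22.4 in sgCON and 7.77 in parental cells, and FBRSL1 18.4, 12.7 and 4.54 FPKM. ARC, an immediate early gene of neurons, averaged 3.53 FPKM in YAPKO1, 1.37 in YAPKO2, 4.52 in sgCON and 0.63 in parental cells. PLPPR3, a membrane protein of the phospholipid phosphatase-related family, averaged 11 FPKM in YAPKO1, 7.25 in sgCON and 2.60 in parental cells, and HID1, of dense-core vesicle formation, 4.74, 4.5 and 1.11 FPKM.

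Neighbouring genes on some chromosomes moved together. This was examined after the data had been seen, with protein-coding genes in the order of GENCODE v29, and is given as a description with no test. Over 12169 genes 49.9% had a change below 0. On chromosome 3, 36 of 680 genes were higher and 261 lower, with a median of -0.40, and the median was -0.47 in YAPKO2 and -0.36 in sgCON, all against parental cells. All 3 edited lines thus stood below parental cells on chromosome 3. Of the YAP/TAZ-TEAD list, AMOTL2, CCDC80 and RBMS3, which fell, lie on it. So do other falls named above, among them FSTL1, KCNAB1, TGFBR2, ITGB5, GAP43, EDEM1, ECT2 and MME. PLSCR5 and SYN2, which rose, lie on it too.

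Other stretches were low in YAPKO1 and not in the other edited lines. The first 120 genes of chromosome 9 (WASHC1 to CBWD5) had a median change of -0.53, with 3 genes higher and 61 lower, against 0.08 for the other 375 genes of the chromosome. The median of these 120 genes was -0.54, -0.54 and -0.50 in the YAPKO1 libraries, and over the same genes it was 0.04 in YAPKO2 and 0.02 in sgCON. Directly against YAPKO2, 2 of the 120 were higher in YAPKO1 and 64 lower, and against sgCON 3 were higher and 63 lower. UHRF2, a ubiquitin ligase of chromatin, had 6.35, 6.48 and 4.70 FPKM in YAPKO1, against 15.4, 17.3 and 18.3 in parental cells, and the factor gene NFIB averaged 8.71 FPKM in YAPKO1, 17.3 in YAPKO2, 15.9 in sgCON and 20.7 in parental cells. Both were named after their values were seen, and DDX58 lies in this stretch too.

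The first 80 genes of chromosome 20 (C20orf96 to KAT14) showed a like fall, with a median of -0.37, 0 genes higher and 35 lower, against 0.15 for the other 246. The library medians were -0.42, -0.38 and -0.27 in YAPKO1, and over the same genes the median was 0.15 in YAPKO2 and 0.06 in sgCON. The phosphatase gene CDC25B averaged 12.9 FPKM in YAPKO1, 28.7 in YAPKO2, 21.1 in sgCON and 20.7 in parental cells, and NOP56, of ribosome assembly, 145 FPKM in YAPKO1, 252 in YAPKO2, 206.3 in sgCON and 207 in parental cells. With the GC correction the medians were -0.50 on chromosome 9 and -0.42 on chromosome 20. DNA was not measured in these libraries, and what lies behind these stretches was not tested.

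On chromosome 14 a stretch that was low in sgCON and lowest in YAPKO2 was low in YAPKO1 mainly in library 3. It holds the 105 genes from SRP54 to MTHFD1, and its library medians are given relative to parental cells. They were -0.03, -0.17 and -0.62 in YAPKO1, -0.86, -1.13 and -0.88 in YAPKO2 and -0.49 to -0.57 in sgCON. Directly against YAPKO2, 36 of the 105 were higher in YAPKO1 and 1 lower. Over those 105 genes the YAPKO1 median was 0.02 with the GC correction. Over the next 115 genes, from ZBTB25 to TRIP11, the median was 0.01 in YAPKO1, -0.06 in YAPKO2 and -0.48 in sgCON.

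**Figure D5:**
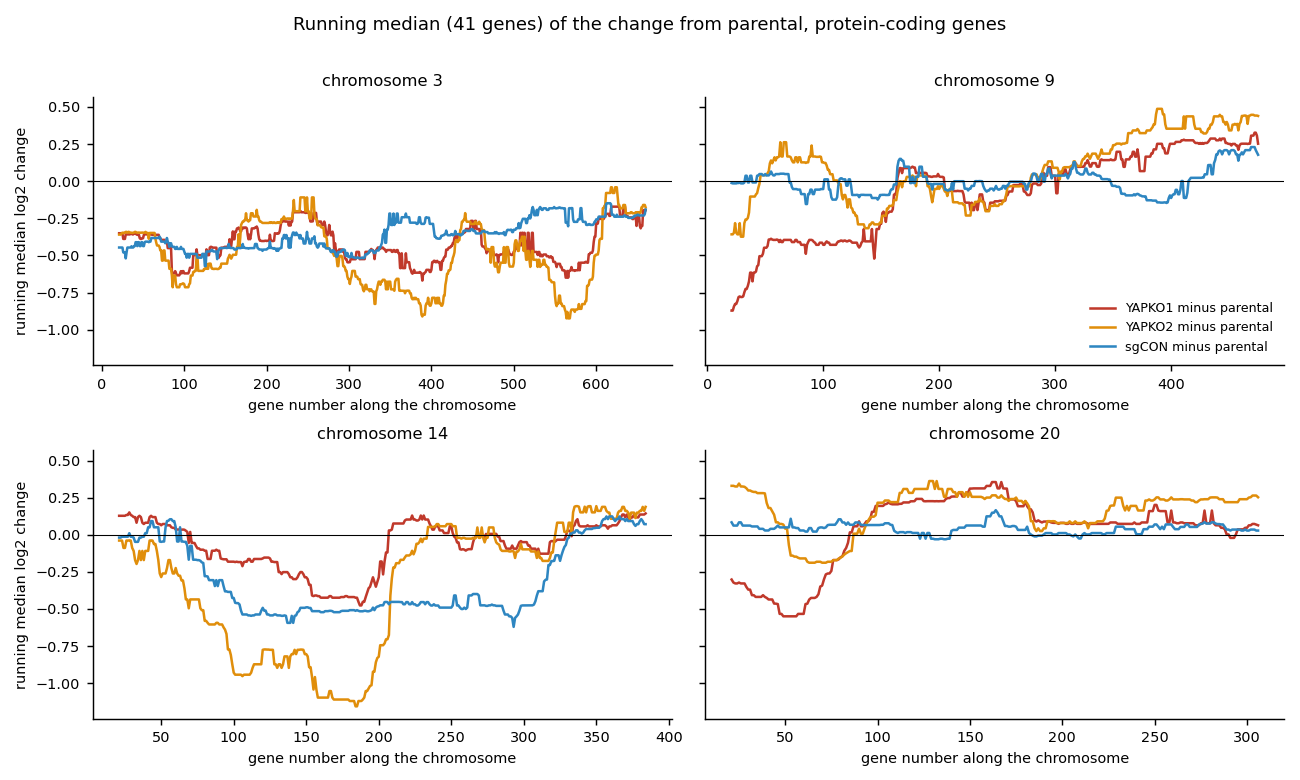
Running median of the log2 change over 41 protein-coding genes along 4 chromosomes. The x axis is the gene number in chromosome order and the y axis the median change from parental cells, for YAPKO1 (red), YAPKO2 (orange) and sgCON (blue). Chromosome 3 is below 0 in all 3 lines, and the first 120 genes of chromosome 9 and the first 80 of chromosome 20 have medians of -0.53 and -0.37 in YAPKO1.

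The cells were checked against marker lists. Of 12 neuroblastoma line markers PHOX2A, HAND2, GATA3, ISL1, ELAVL4 and MYCN were above 10 FPKM on average in all 4 lines, while the catecholamine enzyme TH was at or under 0.04 FPKM in each. Epithelial, blood and endothelial markers were near 0: of 12 epithelial genes 8 and of 12 blood and endothelial genes 10 were under 1 FPKM in all 6 libraries, and CDH1, CD3E and HBB were listed at 0. The macrophage marker CD68, which other cells also express, had 0.63, 0.59 and 1.11 FPKM in YAPKO1, against 12.4, 9.72 and 13.1 in parental cells. Of 12 Schwann cell markers 6 were measured, with 0 higher and 1 lower. SOX10, below the filter, averaged 0.18 FPKM in both groups. Fibroblast markers, which the matrix list shares in part, summed to 239 to 508 FPKM in YAPKO1, against 894 to 957 in parental cells, with 1 of 9 measured members higher and 3 lower. The collagen gene COL3A1 averaged 87.0 FPKM in YAPKO1 and 169 in parental cells, and LUM, lumican, had 364, 309 and 80.6 FPKM in YAPKO1, against 552, 610 and 555 in parental cells, and was not called (adjusted p = 0.103). FAP and DPT, which mark fibroblasts, were listed at 0 or averaged at most 0.10 FPKM in both groups. The part that these markers play in the fall of the matrix genes was not tested.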

How the data were processed

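RNA sequencing values of 21 libraries were taken as the authors deposited them, in a table of FPKM for 57820 genes. The submitters' processing notes name STAR 2.4.2, RSEM 1.3.0 and hg19, with no role given for each. Whether strand was used is not given in the sources used here, so antisense genes are uncertain. A second deposited table, of calibrated FPKM, equals the first times 1 factor per library (0.927 to 1.07) and supplied the symbols. The parental samples were matched to the columns whose headers name DMSO without a line.

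Scaling used median ratios to the geometric mean of each gene. The filter asked for 1 FPKM or more in 3 or more libraries and left 16194 genes (12192 protein-coding). Fits of log2(FPKM + 0.5) used limma 3.58.1 (R 4.3.3) and had 7 group means over all 21 libraries, so that groups share 1 estimate of the spread, and eBayes with a trend. Tests were two-sided, with Benjamini-Hochberg adjustment over all genes and a threshold of 0.05. The pseudocount understates changes of low genes. On simulated data for this comparison, with 200 of 16194 genes changed, 61% of changes of 1 and 89% of changes of 2 (log2) were recovered, with 11 false calls. The simulated noise was independent between genes and held no GC trend within a library. These rates therefore need not hold for the data, where 4393 genes were called.

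Gene types, chromosome order and GC content (96.4% of tested genes) came from GENCODE v29 on GRCh38, which is not the build of the files, so no coordinate of the files is used. Promoters came from RefSeq (GRCh38.p14). The members, the lists and the rule for named genes were chosen with earlier results of these data known. The rule takes YAP1, the 15 largest rises and falls with no overlap, 10 and 10 that also differ from sgCON, 8 and 8 shared with sgCON, the YAP/TAZ-TEAD list and up to 5 members of each list. Same-numbered libraries of the lines did not deviate together (correlations of -0.05, 0.05 and -0.02), so the numbers were not taken as pairs.

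Some genes that the rule names are not reported here.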

Additional observations from a re-analysis of the deposited data

Results flagged for a closer look

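Among YAP1 and the genes named for the largest, distinct or shared changes, 49 in all, 20 differed between the knockout lines in a direct test of YAPKO1 against YAPKO2, which is also the difference of their changes from the shared parental libraries (limma, adjusted p under 0.05 over all genes). Over all genes tested 1122 of 16194 differed (6.93%). The named genes were chosen by their values in the same YAPKO1 libraries, so the count of 20 does not measure how far the lines differ. Positive values are higher in YAPKO1, as log2 differences.

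YAP1 itself was 1.83 higher in YAPKO1. Of the genes that rose in YAPKO1, GAGE1 was 4.32 higher than in YAPKO2, PRRX1 3.93, TNNI1 2.61, HAND1 2.28, SDC2 2.13, PLSCR5 1.94 and LPAR3 1.71. Among the genes that fell in YAPKO1, S100A10 was 3.43 higher than in YAPKO2, MOXD1 3.09, MME 2.78, ANXA1 1.88, CD36 1.34 and FABP4 1.28, so the fall was deeper in YAPKO2. KCNAB1 (-1.74) and NRP1 (-0.59) were lower in YAPKO1 than in YAPKO2. DCN was lower by the widest margin of these 20 (-4.01), with 12.5 FPKM in YAPKO1 and 208.7 in YAPKO2. Of the genes shared with sgCON, ARC was 1.14 and FBXO32 0.81 higher in YAPKO1, and SLC6A2 was lower (-0.69).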

How the results depend on the processing

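The count of 4393 genes called in YAPKO1 against parental cells (2391 higher) was 2728 (1363 higher) in the fit on the groups compared. It ranged from 3052 to 4577 over fits that leave out 1 library, with 1547 (without YAPKO1 library 3) to 2517 genes higher. Against sgCON the count of 1927 was 737 in the fit on the groups compared, 3042 with the GC spline and 1214 to 2110 over fits that leave out 1 library, with 1214 to 1270 where that library was from sgCON. The sgCON count against parental cells, 2550, was 4686 on the groups compared, 3944 with the GC spline and 1670 to 1848 over the fits that leave out 1 library, lowest without parental library 3 and 1688 without sgCON library 2. The YAPKO1 and YAPKO2 count of 1122 was 305 on the groups compared and 1843 with the GC spline. The causes were not tested.

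YAP1 and the genes named for the largest, distinct or shared changes, 49 in all, kept their calls under every setting tried. Apart from YAP1 they were picked by size of change among genes already called with no overlap. Keeping the call was thus likely from the start and is no separate support. Of all 185 called named genes 165 kept the call, while 15 lost it without YAPKO1 library 3 and 13 in the fit on the groups compared. With the replicate number as a block 3971 genes were called, 3938 of them among the 4393. The GC spline restricted to the groups compared and the fit on the 12 libraries without trametinib, chosen after seeing the data, called 4278 and 4861 genes. FPKM carry no counts, so depth gives no interval here.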
